A study of Drosophila melanogaster with 9 samples.

Results

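These are 58 genes whose transcripts were lower in *brat*-null fly brains after 9 hr of Insb overexpression than both before it and after 18 hr. They were selected on the deposited counts themselves, from 14560 genes in the table, of which 7862 had a mean of at least 5 CPM (a gene's count divided by all counts of its library, times 1000000). Every 9 hr value of a member lies below every 0 hr and every 18 hr value, and its 9 hr mean is at most 80% of both other means. Transcripts with CR numbers as names and 8 muscle genes (*Mhc*, *Mlc1*, *Mlc2*, *Tm2*, *up*, *wupA*, *Act57B* and *Act87E*) were to be left out, but none of them met the other conditions. The dip at 9 hr is therefore how the genes were chosen, and it is described here without a test.

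The 0, 9 and 18 hr groups had 3 libraries each, made from poly-A RNA of whole dissected larval brains pooled within each sample. All larvae were *brat11/Df(2L)Exel8040* and carried *2xTub-Gal80ts*, *Wor-Gal4* and *UAS-insb*; the driver combination, which the study describes with *Ase-Gal80*, is active in type II neuroblasts. All larvae started at 25 °C and were of the same total age at dissection. The 9 and 18 hr groups spent their last 9 or 18 hr at 33 °C, which releases Gal4, and the 0 hr group stayed at 25 °C, so Insb overexpression and time at 33 °C cannot be told apart. No group at 33 °C without the transgene was analysed here.

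Type II neuroblasts are neural stem cells of the fly brain that produce neurons and glia through intermediate neural progenitors (INPs). Without the translational repressor Brat, newborn INPs revert to neuroblasts, and the brain fills with them. Insb is a nuclear protein that antagonizes Notch signalling, the pathway that keeps neuroblasts undifferentiated, and the time course was designed to drive the extra neuroblasts toward INPs.

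Library totals ranged from 26533845 to 37109356 counts. The transgene target *insb* (listed as *CG6520*) was at 32.7 to 35.8 CPM at 0 hr, 375.3 to 398.5 CPM at 9 hr and 317.3 to 357.0 CPM at 18 hr, with no overlap between the 0 hr group and the others. The labels call the cells neural stem cells, but the neuronal marker *elav* (430.4 to 679.6 CPM) and the glial marker *repo* (52.3 to 63.5 CPM) were present in every library beside the neuroblast marker *dpn* (161.0 to 210.1 CPM). In such bulk samples, fewer cells of a type and less RNA per cell cannot be told apart. At 9 hr, replicates 2 and 3 were nearly identical over most genes. The median chi-square per gene was 0.812 between them, against 2.03 to 6.26 in the other pairs within a group; the median from counting noise is 0.455 if each fragment was counted once and 0.91 if its 2 ends were counted separately, and which applies is not given in the sources used here. They count as 1 sample (n = 2) wherever a coefficient of variation is given. The selection, the tests and the SEs printed with them kept all 3 libraries. Replicate 2 of the 0 hr group stood apart in many members, as described below.

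The conditions narrowed the list in steps. Every 9 hr library was below every 0 hr library in 1559 of the 7862 genes (19.8%), and every 18 hr library was above every 9 hr library in 533 genes (6.78%). Both held in 356 genes, of which 140 had a 9 hr mean of at most 80% of the 0 hr mean, 65 of at most 80% of the 18 hr mean, and 58 met both limits. Single libraries moved this number: 118 genes met the conditions without 18 hr replicate 2 and 92 without 9 hr replicate 2. The same conditions with the direction turned gave 113 genes higher at 9 hr than at both other times. With another time point as the odd one, they gave 168 genes lower and 177 higher at 0 hr, and 15 lower and 10 higher at 18 hr.

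The dips were mostly moderate. The 9 hr mean as a share of the smaller of the 0 and 18 hr means ran from 44.5% in *Gal* to 79.8% in *RhoGAP16F*, with a median of 74.3%. It was below 50% in 4 members and at least 70% in 39. Against 0 hr alone, the 9 hr mean was at 32.3% to 79.5% (median 58.3%), and against 18 hr alone at 44.5% to 79.8% (median 74.1%). The members nearest the limit on its inner side were *RhoGAP16F* (79.8%), *CG30022* (79.6%) and *Dtg* (79.5%), and the nearest genes outside were *CG5953* (80.3%), *Dhc64C* (80.3%) and *HmgZ* (80.5%). In 14 members, the highest 9 hr library was within 5% of the lowest library of the other groups, and in *bbg* that gap was 0.297%. It was at least 20% in 11 members.

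**Figure D1:**
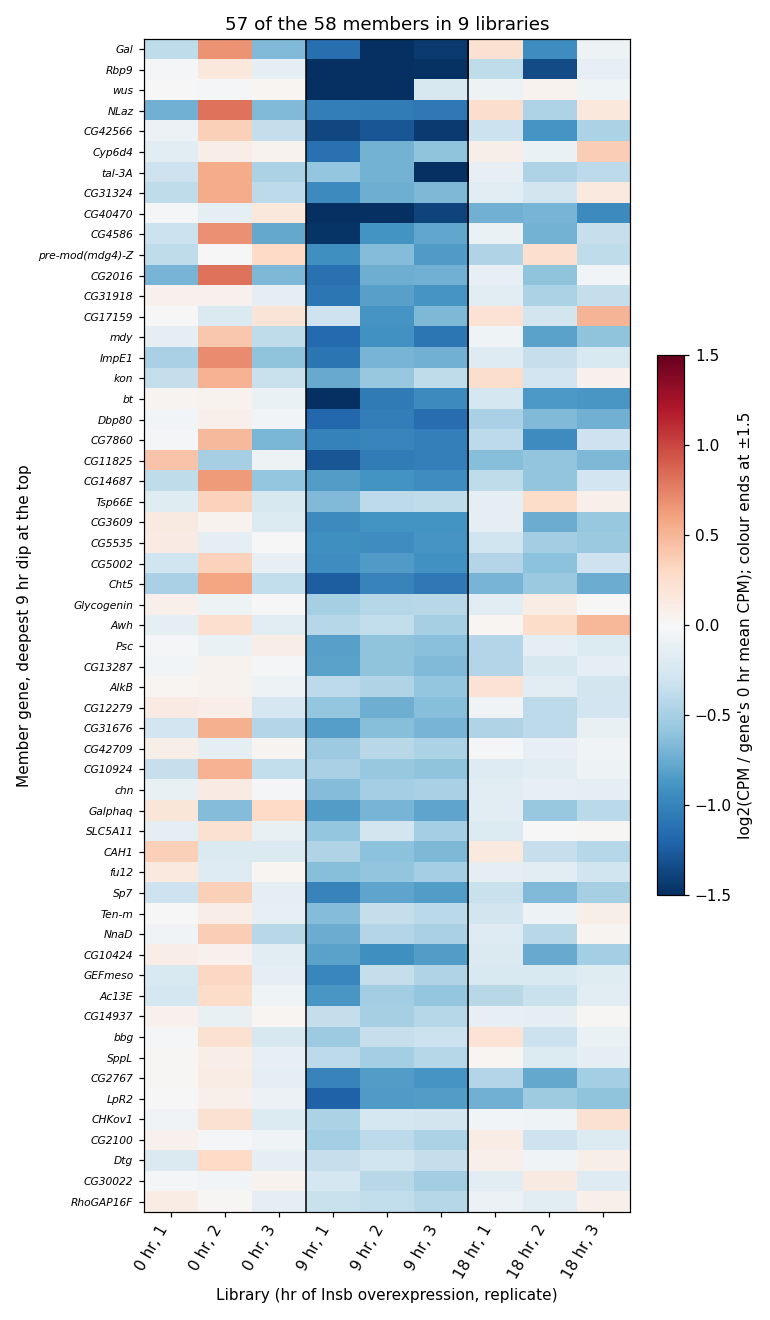
Level of 57 of the 58 members (rows, lowest 9 hr share at the top) in the 9 libraries (columns, 0, 9 and 18 hr from left), as log2 of CPM over the gene's 0 hr mean CPM. Blue is below and red above the 0 hr mean. The 9 hr columns are blue throughout by the way the genes were chosen, several 18 hr rows stay pale blue, and replicate 2 of the 0 hr group is red in many rows.

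Several members act on RNA, chromatin or transcription. *Rbp9*, an RNA-binding protein of the ELAV family, had 12.4, 14.1 and 11.5 CPM at 0 hr, 3.29, 4.46 and 4.52 CPM at 9 hr, and 9.77, 4.98 and 11.7 CPM at 18 hr. Its replicate 2 at 18 hr was close to the 9 hr values, and the other 18 hr libraries were higher. *Rbp9* overlaps *Ts*, the thymidylate synthase gene, on the opposite strand. *Ts* had 79.8 and 84.9 CPM in 18 hr replicates 2 and 1 and 3.59 CPM in replicate 3, so counts at this position are uncertain.

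*Dbp80*, a DEAD-box RNA helicase, had 218.3, 238.2 and 218.7 CPM at 0 hr, 99.3, 110.1 and 102.2 CPM at 9 hr, and 160.3, 142.6 and 136.5 CPM at 18 hr. The groups did not overlap and the spread within each was small. *CG40470* is given here for its similar pattern and position, not for a role in RNA, chromatin or transcription. It had 51.5, 47.2 and 58.4 CPM at 0 hr, 18.6, 18.6 and 20.1 CPM at 9 hr, and 31.7, 32.3 and 27.1 CPM at 18 hr. Both are long genes near the centromere of chromosome 3: *Dbp80* spans 142.8 kb at chr3L:27279316-27422159 and *CG40470* spans 146.6 kb at chr3L:23839860-23986410 (BDGP6, the dm6 assembly). Their 18 hr libraries stayed below all 0 hr libraries.

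*Psc*, a core Polycomb repressor of the PRC1 complex, had 114.7, 108.5 and 124.7 CPM at 0 hr, 66.0, 76.5 and 74.9 CPM at 9 hr, and 85.5, 105.8 and 100.9 CPM at 18 hr. Its 18 hr libraries lay between the 9 hr and the 0 hr libraries without touching either. *chn*, a zinc-finger transcription factor, showed the same order, with 100.1, 117.3 and 105.9 CPM at 0 hr, 68.6, 75.8 and 77.3 CPM at 9 hr, and 95.9, 99.0 and 98.4 CPM at 18 hr. *Awh*, a LIM-homeodomain transcription factor, had the lowest mean over all libraries (5.81 CPM, with 111 reads in its lowest library). It was at 5.39, 7.01 and 5.28 CPM at 0 hr, 4.38, 4.57 and 4.18 CPM at 9 hr, and 6.01, 7.13 and 8.34 CPM at 18 hr, and its 18 hr mean was 121.5% of the 0 hr mean, the highest such share among the members.

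A second group lies at the cell surface or in signalling. *Ten-m*, a teneurin adhesion protein used in synaptic matching, had 373.3, 398.5 and 340.1 CPM at 0 hr, 237.1, 290.0 and 281.0 CPM at 9 hr, and 306.5, 351.6 and 392.9 CPM at 18 hr. The 0 and 18 hr libraries overlapped. *Dtg*, known as a target of the BMP-type ligand Dpp, had 175.3, 249.4 and 184.9 CPM at 0 hr, 160.5, 165.5 and 158.4 CPM at 9 hr, and 213.5, 195.9 and 216.3 CPM at 18 hr. Without 0 hr replicate 2, its 9 hr mean was 89.7% of the lower other mean.

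*ImpE1*, a gene induced by the moulting steroid ecdysone in imaginal discs, had 121.2, 277.5 and 112.1 CPM at 0 hr, 79.6, 105.1 and 103.2 CPM at 9 hr, and 149.3, 134.5 and 145.1 CPM at 18 hr. At 0 hr, replicate 2 was 2.29 times the next library, and without it the 9 hr share was 82.2%. The signalling genes *Ac13E* (an adenylyl cyclase), *Galphaq* (a G protein alpha subunit), *GEFmeso* and *RhoGAP16F* (regulators of small GTPases) were also members, with 9 hr shares from 75.6% to 79.8%. The adhesion and membrane genes *kon*, *Tsp66E* (a tetraspanin) and *bbg* (a PDZ-domain protein) had shares of 67.8%, 72.1% and 78.8%.

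The third group handles lipids, sugars, amino acids and other small molecules. *LpR2*, a lipophorin receptor that takes up circulating lipoprotein, had 94.2, 98.5 and 87.9 CPM at 0 hr, 40.4, 51.8 and 52.2 CPM at 9 hr, and 56.5, 64.4 and 61.7 CPM at 18 hr. The 18 hr libraries were nearer to the 9 hr than to the 0 hr libraries. *NLaz*, a lipocalin related to apolipoprotein D, had 18.1, 52.8 and 18.9 CPM at 0 hr, 14.5, 14.5 and 14.3 CPM at 9 hr, and 36.0, 21.7 and 33.4 CPM at 18 hr. At 0 hr only replicate 2 was above the 18 hr libraries, and without it the 9 hr share was 77.9%.

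*CG5535*, a cationic amino acid transporter, had 133.9, 111.7 and 122.1 CPM at 0 hr, 65.0, 64.1 and 66.4 CPM at 9 hr, and 99.7, 85.5 and 83.3 CPM at 18 hr, with no overlap between groups. *Gal*, a beta-galactosidase with the lowest share of all members, had 11.7, 24.3 and 9.59 CPM at 0 hr, 6.96, 5.31 and 5.62 CPM at 9 hr, and 17.8, 7.995 and 14.4 CPM at 18 hr. *Cyp6d4*, a cytochrome P450, had 9.34, 11.3 and 10.9 CPM at 0 hr, 4.83, 6.44 and 6.94 CPM at 9 hr, and 11.2, 9.79 and 13.5 CPM at 18 hr. In *Gal* and *Cyp6d4* the 18 hr libraries overlapped those at 0 hr. The triacylglycerol enzyme *mdy* (66.4%), the acyltransferase *fu12* (76.4%), the phosphoenolpyruvate carboxykinase *CG10924* (75.4%), *Glycogenin*, which primes glycogen synthesis (74.2%), the carbonic anhydrase *CAH1* (76.0%) and the solute cotransporter *SLC5A11* (75.9%) also belong here, with the 9 hr share given for each.

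**Figure D2:**
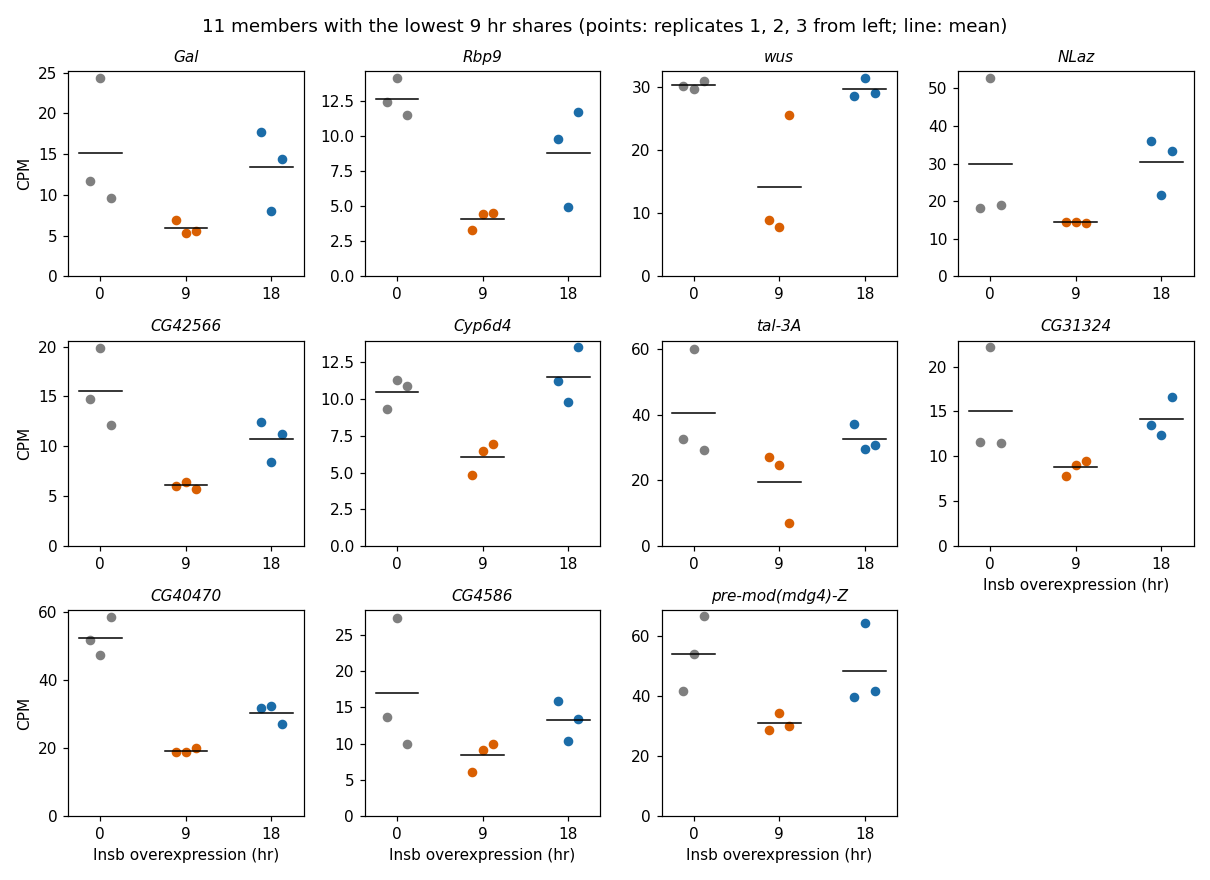
CPM (y axes, each from 0) in each library of 11 members with the lowest 9 hr shares, at 0, 9 and 18 hr of Insb overexpression (x axes). Points are replicates 1, 2 and 3 from left and lines are means of 3 libraries; replicate 2 at 0 hr lies far above its group in *Gal* (24.3 CPM) and *NLaz* (52.8 CPM), and 9 hr replicate 3 lies apart from the other 9 hr libraries in *wus* and *tal-3A*.

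In *wus* a single 9 hr library differed from the other 9 hr libraries. This gene, which encodes a transmembrane protein needed for endocytosis in the airways, had 29.8 to 31.0 CPM at 0 hr, 8.91, 7.89 and 25.6 CPM at 9 hr, and 28.7 to 31.5 CPM at 18 hr. Replicate 3 was near the other groups, although replicates 2 and 3 were nearly identical over most genes. The reason was not tested.

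Other members share exons with a gene on the same strand, which can divide reads between them. In *tal-3A*, a small-peptide gene of the *tarsal-less* locus, the values were 32.7, 59.9 and 29.2 CPM at 0 hr, 27.03, 24.8 and 6.97 CPM at 9 hr, and 37.1, 29.4 and 30.9 CPM at 18 hr. Its neighbours *tal-1A*, *tal-2A* and *tal-AA* had counts in 9 hr replicate 3 alone. Summed over the 4 genes, 9 hr replicate 3 had 23.03 CPM and the 9 hr share was 76.9% in place of 60.4%.

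*pre-mod(mdg4)-Z*, an alternative exon set of the *mod(mdg4)* chromatin gene, had 41.5, 54.0 and 66.7 CPM at 0 hr, 28.6, 34.5 and 29.9 CPM at 9 hr, and 39.5, 64.2 and 41.7 CPM at 18 hr. Its share was 64.0%, and 82.6% once summed with *pre-mod(mdg4)-T*. *Galphaq* had 143.1, 80.6 and 154.7 CPM at 0 hr, 70.5, 77.5 and 73.0 CPM at 9 hr, and 111.9, 84.7 and 95.7 CPM at 18 hr, with 0 hr replicate 2 near the 9 hr libraries. The share was 75.6% in *Galphaq* and 90.3% with *CG45086* added, and 65.8% in *CG17159* and 87.2% with *CG17162* added. With these genes summed, 55 of the 58 genes still met the conditions. In all, 20 members overlapped exons of another gene, 7 of them on the same strand.

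**Figure D3:**
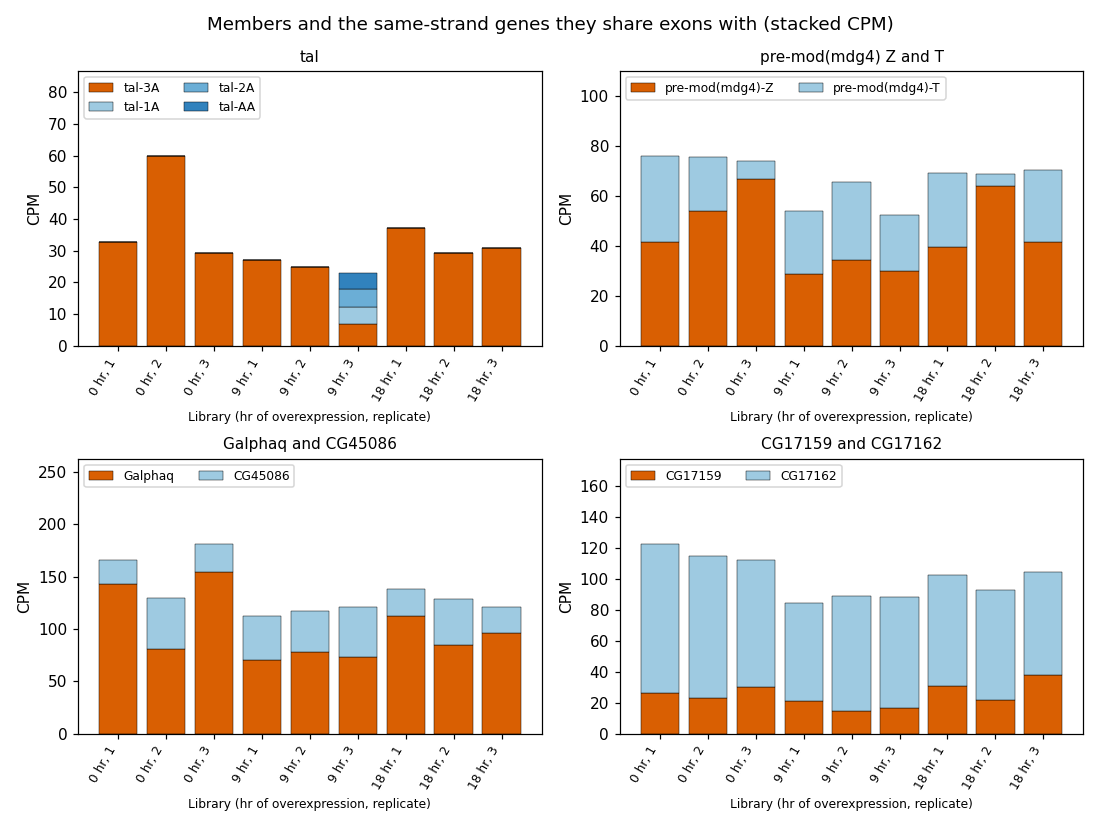
CPM (y axes, from 0) of 4 members (orange) stacked with the same-strand genes they share exons with (blue), in the 9 libraries ordered by time (x axes). In 9 hr replicate 3 the *tal* reads are divided over 4 genes that sum to 23.03 CPM, and the 9 hr sums of the other loci stay nearer to the 0 and 18 hr sums than the member alone.

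The members were not evenly high over the 0 hr libraries. Replicate 2 was the highest 0 hr library in 37 of the 58 members (63.8%) and in 37.2% of the 7862 genes. It was at least 1.5 times the next 0 hr library in 12 members (20.7%), against 1.56% of the 7862 genes; this limit was chosen after the values were seen. These 12 were *NLaz*, *CG2016*, *ImpE1*, *Gal*, *CG14687*, *CG4586*, *Cht5*, *CG31324*, *tal-3A*, *CG10924*, *kon* and *CG31676*, at 1.77 to 2.82 times. The same library was high in the ecdysone response genes *ImpE2* (323.9 CPM, against 89.5 and 17.3 CPM in the other 0 hr libraries) and *Hr4* (201.9 CPM, against 58.04 and 81.8 CPM). It was also high in *Muc96D*, a mucin (292.9 CPM, against 0.381 and 0.755 CPM). Replicate 2 was the highest 0 hr library in most of the 16 listed ecdysone response genes, among them *Eip78C* (35.8 CPM, against 14.0 and 14.04 CPM). Of that list, it was the lowest 0 hr library only in *ftz-f1* (148.3 CPM, against 235.9 and 253.4 CPM) and *EcR* (78.2 CPM, against 95.4 and 87.3 CPM). The genes given here with CPM values were picked after their values were seen. The sum over 16 ecdysone response genes was 2194 to 2977 CPM at 0 hr, 1893 to 2306 CPM at 9 hr and 2138 to 2411 CPM at 18 hr, with the highest sum in 0 hr replicate 2, and its part in the members' pattern was not tested. Without 0 hr replicate 2, 52 genes met the conditions, 49 of them among the 58. The other groups were uneven too. At 9 hr, replicate 1 was the lowest library in 36 members (62.1%, against 34.6% of the 7862 genes). At 18 hr, replicate 2 was the lowest library in 32 members (55.2%, against 42.7%).

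The level at 18 hr against 0 hr was not itself a condition, but it uses the same libraries and both groups had to lie above 9 hr. The conditions can shift it, since 1559 genes were lower at 9 hr than at 0 hr and 533 were higher at 18 hr than at 9 hr. Values over all genes, here and below, come from genes not selected this way. A difference from them is not read as a property of the members. The members' 18 hr mean was 57.95% to 121.5% of the 0 hr mean (median 87.0%). It was below the 0 hr mean in 50 members and above it in 8. Measured as the part of the 9 hr deficit regained by 18 hr, the return was 28.1% to 183.7% (median 63.6%), and it was under 50% in 18 members. All 18 hr libraries were below all 0 hr libraries in 16 members, compared with 11.9% of the 7862 genes, and above them in 0 members, compared with 11.8%. The groups overlapped in the other 42.

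All 58 members were among the 10799 genes with enough counts for edgeR's quasi-likelihood test of 18 hr against 0 hr. Their median log2 fold change was -0.20, against 0.01 over all genes tested. *Dbp80* fell at 18 hr relative to 0 hr (log2 fold change -0.62, SE 0.07, adjusted p = 0.00517 by edgeR), as did *CG40470* (-0.79, SE 0.11, adjusted p = 0.014) and *LpR2* (-0.62, SE 0.11, adjusted p = 0.0354). In these 3 genes all 3 18 hr libraries were below all 0 hr libraries. They were the members past an adjusted p of 0.05 and a 1.5-fold change, while 0.278% of all genes tested were lower by that rule. By the adjusted p alone, 5 members were lower, against 0.75% of all genes; the further ones were *CG2767*, of the aldo-keto reductase family (-0.57, SE 0.09, adjusted p = 0.0207), and *CG5535* (-0.46, SE 0.08, adjusted p = 0.0325).

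No member was called higher by edgeR (0 of 58), where 60 of all 10799 genes tested were. DESeq2 also called 0 of 58 higher, and 135 of all 10799 genes. At such low shares, 0 of 58 says little about the members. By edgeR, 0 members were higher at an unadjusted p under 0.05. At an unadjusted p under 0.05, 15 members were lower by edgeR and 18 by DESeq2, and without 0 hr replicate 2 there were 4 higher by edgeR, none of them called. The share of all genes tested that passes this unadjusted limit is not given here, so these counts cannot be called high or low. With 9 hr replicates 2 and 3 summed as 1 library, edgeR called *Dbp80* (adjusted p = 0.0162) and *CG40470* (adjusted p = 0.0393), and the call of *LpR2* was lost (adjusted p = 0.0681), and *CG2767* (adjusted p = 0.0509) and *CG5535* (adjusted p = 0.0712) no longer passed either. The calls also depend on single libraries. *LpR2* was not called in 8 of the 9 fits that left out a library, the exception being the fit without 9 hr replicate 1. Without 18 hr replicate 3, edgeR called 0 members (15 lower at an unadjusted p under 0.05), without 0 hr replicate 1 it called *Dbp80* alone, and without 18 hr replicate 1 it called 5. For single genes 13 alternatives were run, the same 9 fits that left out a library among them. The adjusted p was under 0.05 in 13 for *Dbp80* (2.13e-15 to 0.0417), in 9 for *CG40470* (1.43e-08 to 0.0868) and in 4 for *LpR2* (3.43e-05 to 0.132).

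**Figure D4:**
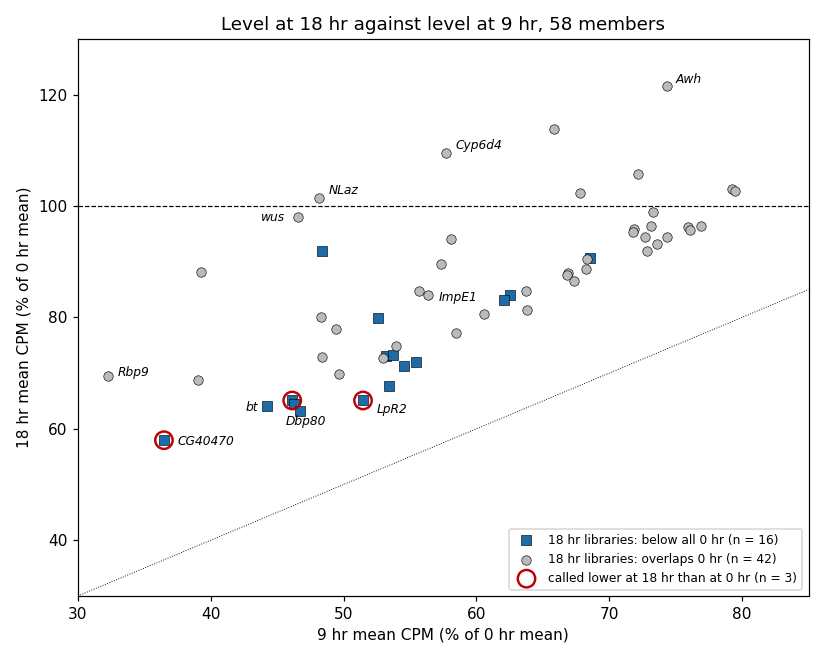
Mean CPM at 18 hr (y axis) against mean CPM at 9 hr (x axis), both as a percent of the 0 hr mean, for the 58 members. Squares are the 16 members whose 18 hr libraries all lie below the 0 hr libraries, circles the 42 that overlap, red rings the 3 called lower at 18 hr; the dashed line is the 0 hr level and the dotted line equal levels at 9 and 18 hr. *CG40470*, *Dbp80* and *LpR2* lie at 57.95%, 65.1% and 65.1% on the y axis, and *Awh* highest at 121.5%.

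Of the 58 members, 3 were on the fixed gene lists for cell types, tissues and pathways. The lists held 5 to 22 genes each, and 58 of the 7862 expressed genes were members. A list without a member therefore says little. Of 22 muscle contractile genes, *bt*, the giant sarcomere protein projectin, was the only member. It had 21.6, 21.8 and 19.5 CPM at 0 hr, 6.99, 10.1 and 10.8 CPM at 9 hr, and 17.4, 11.5 and 11.4 CPM at 18 hr. Of that list, 18 genes were tested and 0 were called in 18 hr against 0 hr by edgeR, including *bt* (log2 fold change -0.65, adjusted p = 0.138). The list's summed level was 447.4 to 527.3 CPM at 0 hr, 395.3 to 439.1 CPM at 9 hr and 411.3 to 552.7 CPM at 18 hr, and no gene of it was at 0 in every library. Most of this sum came from *Tm1*, with 332.1 to 365.2 CPM at 0 hr, 287.7 to 296.6 CPM at 9 hr and 288.4 to 352.9 CPM at 18 hr. The sum therefore says little about the other genes of the list. The 8 muscle genes left out by name summed to 142.7 to 199.7, 76.0 to 157.4 and 143.2 to 243.9 CPM at 0, 9 and 18 hr. The part of muscle transcripts in the level of *bt* was not tested.

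*LpR2* was the only member of 14 lipid and sterol genes and the only one called, in the lower direction. Its relative *LpR1* had 194.6, 225.3 and 217.7 CPM at 0 hr, 117.5, 90.8 and 89.9 CPM at 9 hr, and 74.0, 176.4 and 171.9 CPM at 18 hr, with 18 hr replicate 1 below all 9 hr libraries. *ImpE1* was the only member of 16 ecdysone response genes, of which 0 were called. No member was on the lists for fat body, hemocytes, trachea and cuticle, eye disc, ring gland, glia, neurons, type II neuroblasts, INPs, heat response, starvation and insulin response, immune peptides, clock, cell cycle or amino acid metabolism. Among the 8 INP markers, 5 were called higher at 18 hr, and among the 10 type II neuroblast markers, 2 were called lower and 1 higher. In fat body markers 18 hr replicate 1 stood apart, with a sum of 1135 CPM against 286.3 and 316.1 CPM in the other 18 hr libraries. At 9 hr the fat body sums were 262.0, 564.7 and 562.7 CPM in replicates 1, 2 and 3. Replicate 1 also had the highest 18 hr sum in hemocyte markers (711.7 CPM, against 161.6 and 399.8 CPM) and in trachea and cuticle markers (367.5 CPM, against 121.5 and 235.9 CPM). It was the highest 18 hr library in 26 members (44.8%, against 51.2% of the expressed genes). The part of fat body or these other tissues in the members was not tested.

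The members lay on all major chromosome arms: of 57 placed in the annotation, 15 were on 3R, 13 on 2L, 11 on 3L, 9 on 2R, 8 on X and 1 (*bt*) on chromosome 4. On 2L lay 22.8% of the members and 17.4% of the expressed genes, and on 3R 26.3% and 24.6%. *Ac13E* (43.4 kb) and *CG7860* (1.38 kb) on the X chromosome were the only members adjacent among expressed genes. Members spanned a median of 4.67 kb of genome, against 3.24 kb for expressed genes, and their longest transcripts had a median of 2122 bases, against 2285 bases. Their mean CPM was lower (median 23.5, against 49.6), with 27 members under 20 CPM and 5 at or above 100 CPM. The coefficient of variation within a group had medians of 15.1%, 8.84% and 11.9% at 0, 9 and 18 hr (n = 3, 2 and 3), against 6.24%, 4.86% and 7.995% over the expressed genes.

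The other members are mostly listed by CG number. *CG42709* had 160.0, 136.0 and 154.8 CPM at 0 hr, 103.2, 112.2 and 108.4 CPM at 9 hr, and 146.8, 137.8 and 145.0 CPM at 18 hr, with the 0 and 18 hr groups overlapping. *CG42566* had 14.7, 19.9 and 12.2 CPM at 0 hr, 6.07, 6.41 and 5.77 CPM at 9 hr, and 12.45, 8.46 and 11.2 CPM at 18 hr. *CG4586* had 13.6, 27.4 and 9.94 CPM at 0 hr, 6.13, 9.12 and 9.91 CPM at 9 hr, and 15.9, 10.4 and 13.4 CPM at 18 hr, so that a 9 hr and a 0 hr library were 0.32% apart. *CG31324*, now named *Cipc*, had 11.6, 22.2 and 11.5 CPM at 0 hr, 7.79, 9.06 and 9.46 CPM at 9 hr, and 13.5, 12.4 and 16.7 CPM at 18 hr. Its 18 hr libraries were all above 0 hr replicates 1 and 3 and below replicate 2.

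Some of the rest have known activities. The chitinase gene *Cht5* had a 9 hr share of 74.0%, the serine protease gene *Sp7*, which acts in melanization, 76.6%, the signal peptide peptidase-like gene *SppL* 79.0% and *AlkB*, of a demethylase family, 75.0%. *NnaD*, *CHKov1* and the members with CG numbers that are not given with a value above had 9 hr shares between 65.7% (*CG2016*) and 79.3% (*CG2100*). Among them, *CG2016*, *CG31918* and *CG10424* are now named *Jhbp2*, *Nepl3* and *Naxd*.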

How the data were processed

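RNA was sequenced from 9 samples of *brat*-null larval brains, 3 each at 0, 9 and 18 hr. Per the methods and processing notes, HISAT2 2.1.0 placed the read pairs on dm6 and StringTie 1.3.4 counted them by gene; the authors deposited these raw counts. The annotation version and use of strand are not given in the sources used here, so overlapping genes are uncertain. Columns were assigned by sample title.

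CPM was the count over the library's column sum. The conditions were a mean of at least 5 CPM, no overlap between groups and a ratio limit of 0.8. Members and gene lists were chosen with earlier results of these data known. The named genes are the 12 members with the lowest 9 hr share, the 10 with the highest mean CPM, members on a list, those called, the 3 nearest each side of the limit and genomic neighbours. Others are named by role. The values of 1 member are not reported here.

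Only 18 hr against 0 hr was tested, with edgeR (4.0.16, under R 4.3.3; filterByExpr, TMM, glmQLFit and glmQLFTest over all 9 libraries, Benjamini-Hochberg). Calls required at least a 1.5-fold change and an adjusted p below 0.05. Each SE was derived from the test, as the absolute log2 fold change over the square root of its F statistic. The biological coefficient of variation was 0.239. On simulated counts for this comparison (10625 genes), 17 of 50 genes changed 1.5-fold were called, 39 of 50 at 2-fold, 46 of 50 at 3-fold and 46 of 50 at 4-fold, with 4 false calls among 10425 unchanged genes. Totals of 26533845 to 37109356 counts put 111 reads under the lowest member value. With 3 libraries against 3, no exact test of a single gene was run. The labels do not say whether replicates came from separate cultures; the methods call them biological triplicates.

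Names were matched to the Ensembl annotation of BDGP6: 11086 current symbols, 2722 locus tags, 611 synonyms and 141 not matched, with 57 of 58 members matched. Alternatives were DESeq2 version 1.42.0, other scalings and filters, other limits, a replicate block, 9 hr replicates 2 and 3 averaged or summed, and each replicate left out; summing genes that share exons was chosen after seeing the data.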

Additional observations from a re-analysis of the deposited data

How the results depend on the processing

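The number of genes meeting the conditions was 58. It was 19 with a ratio limit of 0.7 and 211 with 0.9, and between 52 and 118 with each replicate left out in turn, the fewest without 0 hr replicate 2 and the most without 18 hr replicate 2 (56 shared with the 58); without 9 hr replicate 2 it was 92. TMM scaling gave 78 and RLE scaling 79, which kept all 58. Over all genes, 90 were called in 18 hr against 0 hr (30 lower, 60 higher). DESeq2 called 203, the fit of 0 and 18 hr libraries alone 25, the fit with 9 hr replicates 2 and 3 summed 49, the adjusted p alone 179, and fits leaving out a replicate 35 to 121 (fewest without 18 hr replicate 3, most without 18 hr replicate 1). Of the members, 3 were called, against 1 (*Dbp80*) with 0 and 18 hr libraries alone, 2 (*Dbp80* and *CG40470*, with *LpR2* lost) with 9 hr replicates 2 and 3 summed, 5 with the adjusted p alone, and 0 to 5 leaving out a replicate. DESeq2 called 4, with *bt* added. Same-numbered libraries of 0 and 18 hr deviated together for replicate 1 (correlation across genes 0.439) but not for replicates 2 (-0.292) and 3 (-0.283), and the other pairings lay between -0.254 and 0.027, so the numbers were not taken to pair the samples. With the replicate block, 50 genes were called (18 lower, 32 higher), 2 of them members (*Dbp80* and *LpR2*). The cause of these differences was not tested. Of 50 genes simulated with a 1.5-fold change, 17 were called. A call also needs an estimated change of at least 1.5-fold, so this number reflects that limit as well as the depth.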
